A study of Mus musculus with 9 samples.

Results

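The genes described here are 36 genes of glycolysis, lactate handling, and the response to low oxygen, chosen by name from the 43346 genes measured in lung fibroblasts of aged mice. They are 2 glucose carriers, 15 glycolytic enzyme genes, 4 lactate enzymes and carriers, 4 pyruvate dehydrogenase kinases, 2 fructose-2,6-bisphosphate enzymes, 2 subunits of the hypoxia-inducible factors (HIFs), 2 prolyl hydroxylases, and 5 other HIF targets. All 36 were found in the table and all 36 passed the filter on low counts. Glycolysis splits glucose into pyruvate in the cytosol, and lactate dehydrogenase turns that pyruvate into lactate, which leaves the cell through monocarboxylate carriers together with a proton. Pyruvate dehydrogenase kinases hold pyruvate back from the mitochondria by switching off pyruvate dehydrogenase. HIF alpha subunits are destroyed through prolyl hydroxylases when oxygen is plentiful, and when they accumulate, they drive transcription of many glycolytic genes. Myofibroblasts, the collagen-producing cells of scarred lung, are known to rely on glycolysis.

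Bulk RNA-Seq was performed on fibroblasts of Col1a1-GFP transgenic mice, in which a Col1a1 promoter drives green fluorescent protein (GFP). The mice were males on an FVB background, 18 months old by the protocol and 72 weeks old by the sample labels. They received 1 intratracheal dose of saline (aged sham, n = 4 mice) or of bleomycin, a drug that injures the lung and causes fibrosis (aged bleo, n = 5 mice), and their lungs were taken 30 days later. Cells positive for GFP and negative for CD45, CD31, and EpCAM, which mark leukocytes, endothelium, and epithelium, were sorted, so both groups carry the transgene and passed the same gate. The comparison asks how injury changed the fibroblasts of old animals during the phase in which fibrosis begins to resolve in young ones. Young mice were not analysed here.

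The libraries held 49921946 to 68260600 counted reads. Col1a1, the gene behind the sorting reporter, was at 3646 to 4554 CPM (reads scaled to the size of the library and normalised for composition) in aged sham and 13547 to 25929 CPM in aged bleo. Pecam1 (CD31) was at 2.43 to 6.69 CPM and Epcam at 0.409 to 1.20 CPM over all 9 libraries. The 6 endothelial markers summed to 164 to 202 CPM in the aged sham libraries and 26.6 to 70.8 CPM in the aged bleo libraries. Of these 6, 1 was called higher and 1, Tek, was called lower. Tek averaged 161 ± 12.9 CPM over the aged sham libraries and 28.8 ± 18.8 CPM over the aged bleo libraries (± SD), so it made up most of the aged sham sum. The 8 epithelial markers, of which 1 was called higher, summed to 11.3 to 95.7 CPM in the aged sham libraries and 19.0 to 62.3 CPM in the aged bleo libraries, highest in aged sham 3. The 7 smooth muscle and pericyte markers summed to 2584 to 5221 CPM in the aged sham libraries and 1851 to 2988 CPM in the aged bleo libraries, with 1 called higher and 2 lower. Of 6 fibroblast identity genes, Col1a1 and Col1a2 were called higher and Dcn and Tcf21 lower, and the 6 summed to 17909 to 20889.7 CPM in the aged sham libraries and 32496 to 47718 CPM in the aged bleo libraries. Of the 6 pan-leukocyte markers, 1 was called higher. They summed to 94.2 to 350.3 CPM in the aged sham libraries and 97.8 to 545 CPM in the aged bleo libraries, and aged sham 4 and aged bleo 4 were the highest of their groups. The same 2 libraries were the highest in the sum of 8 neutrophil markers, at 1025 and 914 CPM against 86.9 to 452 CPM in the other 7. The 7 macrophage markers summed to 137 to 263 CPM in the aged sham libraries and 443 to 1496 CPM in the aged bleo libraries, and 4 of them passed the thresholds given below as higher in aged bleo. The 8 cell cycle genes, all 8 of which were higher in aged bleo, summed to 9.26 to 57.4 CPM in the aged sham libraries and 36.9 to 297 CPM in the aged bleo libraries. Aged bleo 4 and aged bleo 5 had the highest cell cycle sums (297 and 263 CPM) and the highest macrophage sums (1496 and 855 CPM). In bulk samples, a change in the number of cells of a type and a change in RNA per cell cannot be told apart.

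Genes were called higher or lower in aged bleo at a false discovery rate (FDR, the adjusted p of edgeR's quasi-likelihood test over 16877 genes) under 0.10 and a fold change over 1.5. By these thresholds 13 of the 36 genes were higher and 4 were lower in aged bleo, where 12.3% of all genes tested were higher, 11.5% were lower, and 23.8% were called in either direction. In 11 of the 36, every aged bleo library lay above every aged sham library, and in 6 every one lay below, against 16.1% of all genes in each direction. The median log2 fold change was 0.12 for the 36 genes and 0.01 for all genes tested. The higher genes encoded 7 of the 15 glycolytic enzymes, the lactate dehydrogenase subunit Ldha, the lactate carrier Slc16a1, the kinase Pdk3, both HIF alpha subunits, and the HIF target Ankrd37. The lower genes were Pfkp, Ldhb, Pdk4, and Adm. With aged sham 4 and aged bleo 4 left out, 11 of the 36 genes were higher and 6 were lower, where 1785 of all 16877 genes tested were higher and 1844 were lower. Relative levels of all 36 genes are shown for each library in the heat map.

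**Figure D1:**
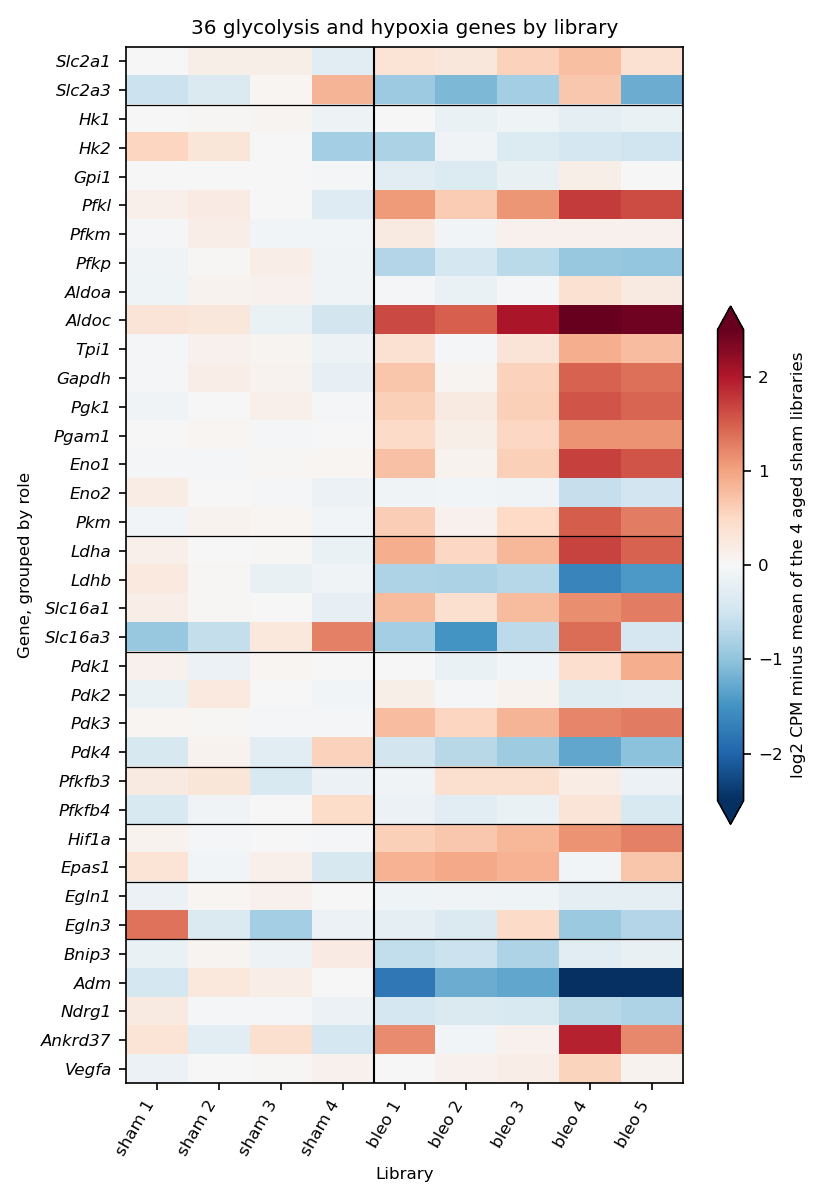
Level of each of the 36 genes (rows, grouped by role) in each of the 9 libraries (columns), as log2 CPM minus the mean of the 4 aged sham libraries. Red is above and blue below that mean, and colours stop at 2.5 log2 units in either direction. Among the 13 genes called higher, aged bleo 4 and aged bleo 5 are the 2 highest aged bleo libraries for 12, the exception being Epas1.

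The steps of glycolysis from glyceraldehyde-3-phosphate to pyruvate each had a gene that rose in aged bleo, and these 5 genes were Gapdh, Pgk1, Pgam1, Eno1, and Pkm. Gapdh, which oxidises glyceraldehyde-3-phosphate, was at 96.0, 110.4, 105, and 85.3 CPM in aged sham 1 to 4 and 159, 104, 147, 274, and 256 CPM in aged bleo 1 to 5, a log2 fold change of 0.92 ± 0.27 (± gives the standard error, SE, of a log2 fold change throughout, FDR = 0.0271). The groups overlapped, because aged bleo 2 lay among the aged sham libraries. Pgk1, which forms the first ATP of the pathway, was at 34.3, 36.2, 39.7, and 34.9 CPM in aged sham and 54.5, 42.6, 54.4, 108, and 99.7 CPM in aged bleo (log2 fold change 0.99 ± 0.27, FDR = 0.0217). Its groups did not overlap, and aged bleo 4 and 5 stood well above the other 3. Pgam1, a phosphoglycerate mutase, was at 23.9, 24.5, 23.4, and 23.6 CPM in aged sham and 33.3, 26.5, 34.0, 52.1, and 52.1 CPM in aged bleo (log2 fold change 0.73 ± 0.20, FDR = 0.0198), again without overlap.

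Eno1, the ubiquitous enolase, varied by little among the sham mice and widely among the injured ones. It was at 66.7, 67.5, 70.0, and 70.6 CPM in aged sham and 114, 72.5, 104, 224, and 204 CPM in aged bleo (log2 fold change 1.06 ± 0.31, FDR = 0.0260). Aged bleo 2 was just above the highest aged sham library, whereas aged bleo 4 and 5 were far above it. Pkm, the pyruvate kinase gene, was at 244, 271, 267, and 246 CPM in aged sham and 396, 278, 365, 731, and 627 CPM in aged bleo (log2 fold change 0.90 ± 0.27, FDR = 0.0280), in the same order of libraries. The SD of log2 CPM of Eno1 was 0.04 in aged sham and 0.69 in aged bleo, and that of Pkm was 0.08 and 0.58. Aged bleo 2 was the closest to the sham libraries in 11 of the 13 higher genes. Aged bleo 4 and 5 were farthest from sham in 12 of the 13 higher and all 4 lower genes, and they are also the libraries with the highest cell cycle and macrophage sums given above. The part of dividing cells and macrophages in these values was not tested. Without aged bleo 4, the log2 fold changes were 0.74 for Gapdh, 0.78 for Pgk1, 0.60 for Pgam1, 0.84 for Eno1, and 0.68 for Pkm, all still called. With aged sham 4 left out as well, Gapdh was at 0.66 and no longer called, and the other 4 were at 0.59 to 0.84 and still called.

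Among the genes of the earlier steps that belong to the 36, Pfkl and Aldoc rose and Pfkp fell, and neither glucose carrier was called. Glucose enters through Slc2a1 (GLUT1) and Slc2a3 (GLUT3). Slc2a1 was at 36.1, 40.6, 40.4, and 29.8 CPM in aged sham and 46.5, 44.1, 54.6, 61.4, and 47.3 CPM in aged bleo. The groups did not overlap and the FDR was passed, but the log2 fold change of 0.47 ± 0.13 (FDR = 0.0196) was short of the fold threshold. Slc2a3 was at 16.3, 18.3, 24.4, and 42.7 CPM in aged sham and 12.6, 10.8, 13.1, 37.6, and 10.0 CPM in aged bleo (log2 fold change -0.59 ± 0.45, FDR = 0.330), highest in the 2 libraries with the most neutrophil markers. Without aged bleo 4 it was called lower, at -1.14, and without both leukocyte-rich libraries at -0.77. The hexokinases phosphorylate glucose. Hk1 was at 73.8, 74.9, 76.1, and 67.2 CPM in aged sham and 72.8, 64.8, 67.6, 61.3, and 65.2 CPM in aged bleo (log2 fold change -0.14 ± 0.07, FDR = 0.140), and the groups overlapped. Hk2, the inducible hexokinase, was at 90.3, 77.0, 62.5, and 34.3 CPM in aged sham and 35.9, 58.6, 49.2, 45.9, and 44.3 CPM in aged bleo (log2 fold change -0.50 ± 0.25, FDR = 0.149). Aged sham 4 was the lowest library of all 9, and without it Hk2 was called lower, at -0.71. Gpi1, glucose-6-phosphate isomerase, averaged 175 ± 2.51 CPM in the 4 aged sham and 162 ± 22.6 CPM in the 5 aged bleo libraries (± SD) and passed neither threshold. Tpi1, triosephosphate isomerase, averaged 97.1 ± 7.21 and 138 ± 35.7 CPM. It passed the FDR but not the fold threshold (log2 fold change 0.50 ± 0.18, FDR = 0.0542), and was called higher when aged bleo 2 was left out, at 0.62.

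**Figure D2:**
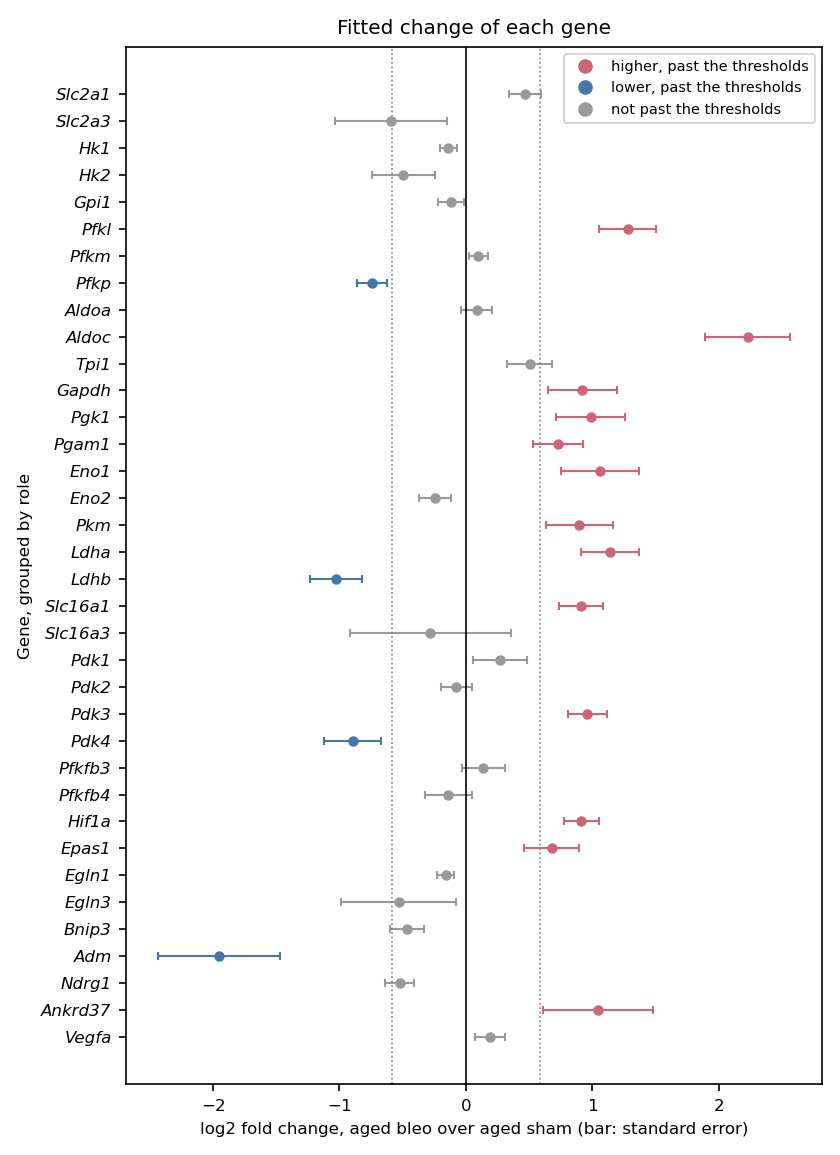
Fitted log2 fold change, aged bleo over aged sham, of each of the 36 genes, grouped by role, with bars of 1 standard error. Dotted lines mark the fold threshold of 1.5, red points are the 13 genes called higher, blue points the 4 called lower, and grey points the 19 not called. Aldoc lies farthest to the right and Adm farthest to the left.

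Phosphofructokinase, the main control point of glycolysis, showed opposite changes in its genes. Pfkl, the liver-type subunit, was at 25.6, 26.9, 23.4, and 18.8 CPM in aged sham and 49.2, 36.5, 50.4, 79.0, and 72.7 CPM in aged bleo (log2 fold change 1.28 ± 0.23, FDR = 0.00338), a 2.43-fold rise without overlap. Pfkp, the platelet-type subunit, fell from 130.0, 140.3, 155, and 129.5 CPM to 83.6, 102, 87.1, 71.3, and 70.8 CPM (log2 fold change -0.74 ± 0.12, FDR = 0.00198), and every aged bleo library was below every aged sham library. Pfkm, the muscle-type subunit, was at 32.6, 37.4, 32.04, and 32.03 CPM in aged sham and 39.0, 32.1, 36.3, 36.1, and 35.998 CPM in aged bleo (log2 fold change 0.10 ± 0.08, FDR = 0.345). The make-up of the family was compared on FPKM, which divides by gene length. Here and below, a family holds only its genes among the 36, and other measured genes of the same kind are outside the sums. The length given for a gene can exceed that of its longest protein-coding transcript. It was 9395 against 4145 bases for Pfkp, 4395 against 3730 for Pfkl, 5379 against 2027 for Eno1, and 2982 against 1815 for Ldha. The level of a share, and which gene of a family holds the most, therefore depends on the length used. Shares by transcript length were not computed. Pfkp held 46.9% ± 2.78 (SD, n = 4) of the summed FPKM of the 3 genes in aged sham and 26.4% ± 6.52 (SD, n = 5) in aged bleo, and Pfkl held 17.1% ± 1.87 and 37.9% ± 8.47. Both differences passed a two-sided exact permutation test over every way of assigning the 9 libraries to groups of 4 and 5 (adjusted p = 0.0423 for each over 16 shares). The Pfkm share was 36.03% ± 2.00 and 35.8% ± 2.90 (adjusted p = 0.873, exact permutation test). Without the 2 leukocyte-rich libraries, the Pfkl and Pfkp shares differed by 17.6 and -18.7 percentage points and no longer passed the threshold of 0.10.

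Aldolase was dominated by Aldoa, which was not called. Aldoa was at 293, 336, 338, and 299 CPM in aged sham and 309, 280.5, 309, 413, and 368 CPM in aged bleo (log2 fold change 0.09 ± 0.12, FDR = 0.617), and its direction turned when aged bleo 4 was left out (-0.01). Aldoc, the brain-type aldolase, was at 0.371, 0.359, 0.253, and 0.201 CPM in aged sham and 0.985, 0.870, 1.29, 2.15, and 1.72 CPM in aged bleo (log2 fold change 2.23 ± 0.34, FDR = 0.00158). That was a 4.69-fold rise without overlap, but from a very low level. Aldoa still held 99.7% ± 0.0774 of the summed FPKM of Aldoa and Aldoc in aged bleo, against 99.9% ± 0.0234 in aged sham (adjusted p = 0.0317, exact permutation test). Eno2, the neuronal enolase, was at 54.5, 47.8, 46.8, and 43.0 CPM in aged sham and 45.3, 45.9, 45.0, 32.3, and 34.2 CPM in aged bleo (log2 fold change -0.24 ± 0.13, FDR = 0.166) and was not called. Of the summed FPKM of Eno1 and Eno2, Eno1 held 55.7% ± 3.05 in aged sham and 72.7% ± 11.9 in aged bleo (adjusted p = 0.0544, exact permutation test). Aged bleo 2 overlapped the sham range. A further enolase gene, Eno3, averaged 2.07 FPKM in aged sham and 2.12 FPKM in aged bleo and is not in this sum. The Eno1 share no longer passed the threshold when any 1 of 8 of the libraries was left out, aged bleo 2 being the exception. Of the summed FPKM of Hk1 and Hk2, Hk1 held 45.2% ± 9.31 in aged sham and 50.1% ± 5.48 in aged bleo (adjusted p = 0.546, exact permutation test).

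**Figure D3:**
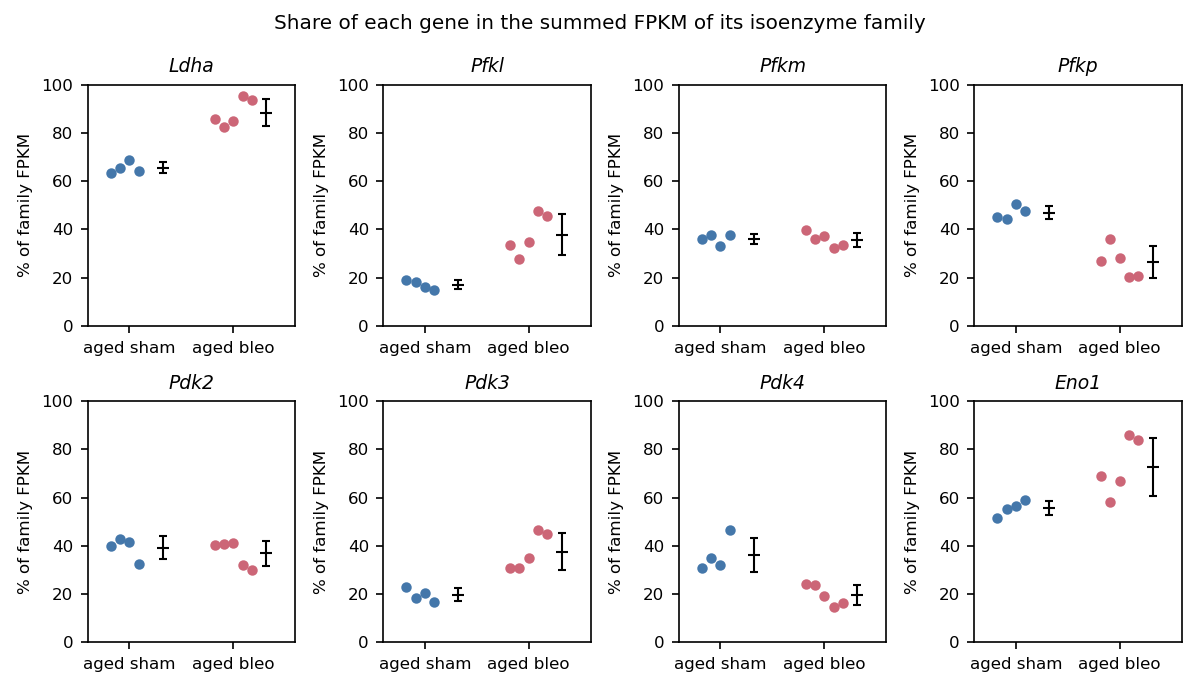
Share of each gene in the summed FPKM of its enzyme family, in percent, for each of the 4 aged sham (blue) and 5 aged bleo (red) libraries, with mean and SD. The Ldha, Pfkl, and Pdk3 shares are higher, and the Pfkp and Pdk4 shares lower, in every aged bleo library than in every aged sham library.

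Lactate dehydrogenase showed the same kind of exchange. Ldha (chr7:46841475-46855627), the subunit that favours lactate formation, was at 173, 161, 163, and 142 CPM in aged sham and 297, 227, 285, 512, and 440.1 CPM in aged bleo (log2 fold change 1.14 ± 0.23, FDR = 0.00592), a 2.21-fold rise. Ldhb (chr6:142490249-142507957), the subunit that favours the reverse reaction, was at 52.3, 44.9, 38.8, and 41.4 CPM in aged sham and 25.9, 25.6, 27.1, 14.0, and 16.3 CPM in aged bleo (log2 fold change -1.03 ± 0.21, FDR = 0.00576). Neither gene's groups overlapped, and within aged bleo the 2 libraries with the most Ldha had the least Ldhb. Per gene length, Ldha was at 22.5 ± 2.04 FPKM and Ldhb at 11.9 ± 1.58 FPKM (SD, n = 4) in aged sham, and at 51.2 ± 18.7 and 5.93 ± 1.55 FPKM (SD, n = 5) in aged bleo. The Ldha share of both was 63.5, 65.4, 68.8, and 64.4% in the aged sham libraries and 85.8, 82.4, 84.7, 95.1, and 93.4% in the aged bleo libraries. It rose from 65.5% ± 2.33 to 88.3% ± 5.62 (adjusted p = 0.0317, two-sided exact permutation test, with a raw p of 0.00794, the smallest that 4 against 5 libraries can give). The Ldha and Ldhb calls were made under every alternative at the same thresholds.

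Of the lactate carriers, Slc16a1 (MCT1) rose and Slc16a3 (MCT4) was highest in the 2 leukocyte-rich libraries, aged sham 4 and aged bleo 4. Slc16a1 was at 37.4, 33.7, 33.4, and 28.7 CPM in aged sham and 57.2, 43.8, 57.4, 73.8, and 80.5 CPM in aged bleo (log2 fold change 0.91 ± 0.17, FDR = 0.00449), with no overlap. Slc16a3 was at 33.1, 42.3, 76.4, and 153 CPM in aged sham and 35.2, 22.7, 40.6, 167, and 47.2 CPM in aged bleo (log2 fold change -0.28 ± 0.64, FDR = 0.761). The highest value of each group was in the library with the most neutrophil markers, and the spread between libraries exceeded any difference between groups. With aged sham 4 left out, the log2 fold change of Slc16a3 was 0.31, with aged bleo 4 left out -1.07, and with both left out -0.49, and it was called in none of these. S100a8, a defining neutrophil gene, was at 14.1, 21.6, 41.6, and 97.0 CPM in aged sham and 15.5, 11.8, 16.2, 114, and 10.9 CPM in aged bleo, and the part of neutrophils in the Slc16a3 and Slc2a3 values was not tested. Slc16a1 held 39.8% ± 17.2 of the FPKM of the 2 carriers in aged sham and 60.2% ± 14.5 in aged bleo (adjusted p = 0.183, exact permutation test), and without aged bleo 4 the difference of 26.7 percentage points passed the threshold. Slc2a1 held 78.7% ± 10.0 and 89.2% ± 4.86 of the summed FPKM of Slc2a1 and Slc2a3 (adjusted p = 0.0794, exact permutation test). The threshold was missed when any 1 library other than aged bleo 4 was left out, and the difference was 5.59 percentage points without aged sham 4. Other carriers of the Slc2a family are not in this sum, such as Slc2a10, which averaged 3.97 FPKM in aged sham and 4.15 FPKM in aged bleo.

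**Figure D4:**
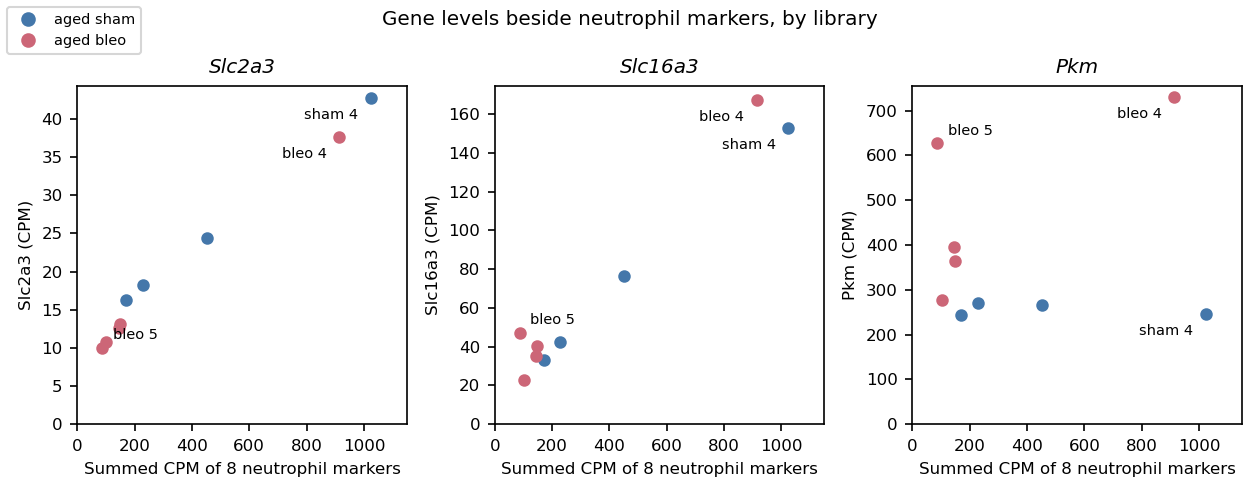
CPM of Slc2a3, Slc16a3, and Pkm (vertical axes) against the summed CPM of 8 neutrophil markers (horizontal axes) in the 4 aged sham (blue) and 5 aged bleo (red) libraries. Slc2a3 and Slc16a3 are highest in aged sham 4 and aged bleo 4, and Pkm is at 246 CPM in aged sham 4, among the other aged sham libraries, and at 627 CPM in aged bleo 5, which has the lowest neutrophil sum. Pkm is highest in aged bleo 4, at 731 CPM, the aged bleo library with the highest neutrophil sum.

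The 4 pyruvate dehydrogenase kinases also divided. Pdk3 was at 11.2, 11.1, 10.5, and 10.7 CPM in aged sham and 18.5, 15.7, 19.6, 25.3, and 26.8 CPM in aged bleo (log2 fold change 0.96 ± 0.15, FDR = 0.00217), so that the sham libraries were nearly equal and all 5 aged bleo libraries lay above them. Pdk4, the kinase induced by fasting and fatty acid use, was at 20.6, 28.8, 22.6, and 40.5 CPM in aged sham and 19.8, 16.8, 14.6, 11.0, and 13.4 CPM in aged bleo (log2 fold change -0.90 ± 0.22, FDR = 0.0147). All 5 aged bleo libraries were below the lowest aged sham library. Pdk1, a HIF target, was at 8.99, 7.59, 8.64, and 8.36 CPM in aged sham and 8.29, 7.51, 8.02, 11.2, and 15.7 CPM in aged bleo (log2 fold change 0.27 ± 0.21, FDR = 0.353). Only aged bleo 4 and 5 exceeded the sham range. Pdk2, the widely expressed kinase, was at 24.0, 31.9, 26.5, and 25.5 CPM in aged sham and 29.8, 25.8, 28.3, 21.6, and 22.2 CPM in aged bleo (log2 fold change -0.08 ± 0.12, FDR = 0.652), with overlap and a direction that turned without aged sham 2. By FPKM, the Pdk3 share of the 4 kinases was 19.7% ± 2.68 in aged sham and 37.6% ± 7.60 in aged bleo, and the Pdk4 share was 36.1% ± 7.09 and 19.6% ± 4.29 (adjusted p = 0.0317 for each, exact permutation test). The shares of Pdk1 and Pdk2 did not pass the threshold (adjusted p = 0.593 and 0.625, exact permutation test).

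Fructose-2,6-bisphosphate, the activator of phosphofructokinase, is made by the bifunctional enzymes Pfkfb3 and Pfkfb4, and neither was called. Pfkfb3 was at 60.1, 63.2, 39.2, and 46.0 CPM in aged sham and 48.2, 67.3, 67.2, 58.0, and 46.4 CPM in aged bleo (log2 fold change 0.14 ± 0.17, FDR = 0.556). Pfkfb4 was at 15.2, 18.6, 19.8, and 27.2 CPM in aged sham and 17.9, 16.5, 17.5, 24.6, and 15.1 CPM in aged bleo (log2 fold change -0.14 ± 0.19, FDR = 0.592), and its direction turned without aged sham 4. The groups of both genes overlapped throughout.

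**Figure D5:**
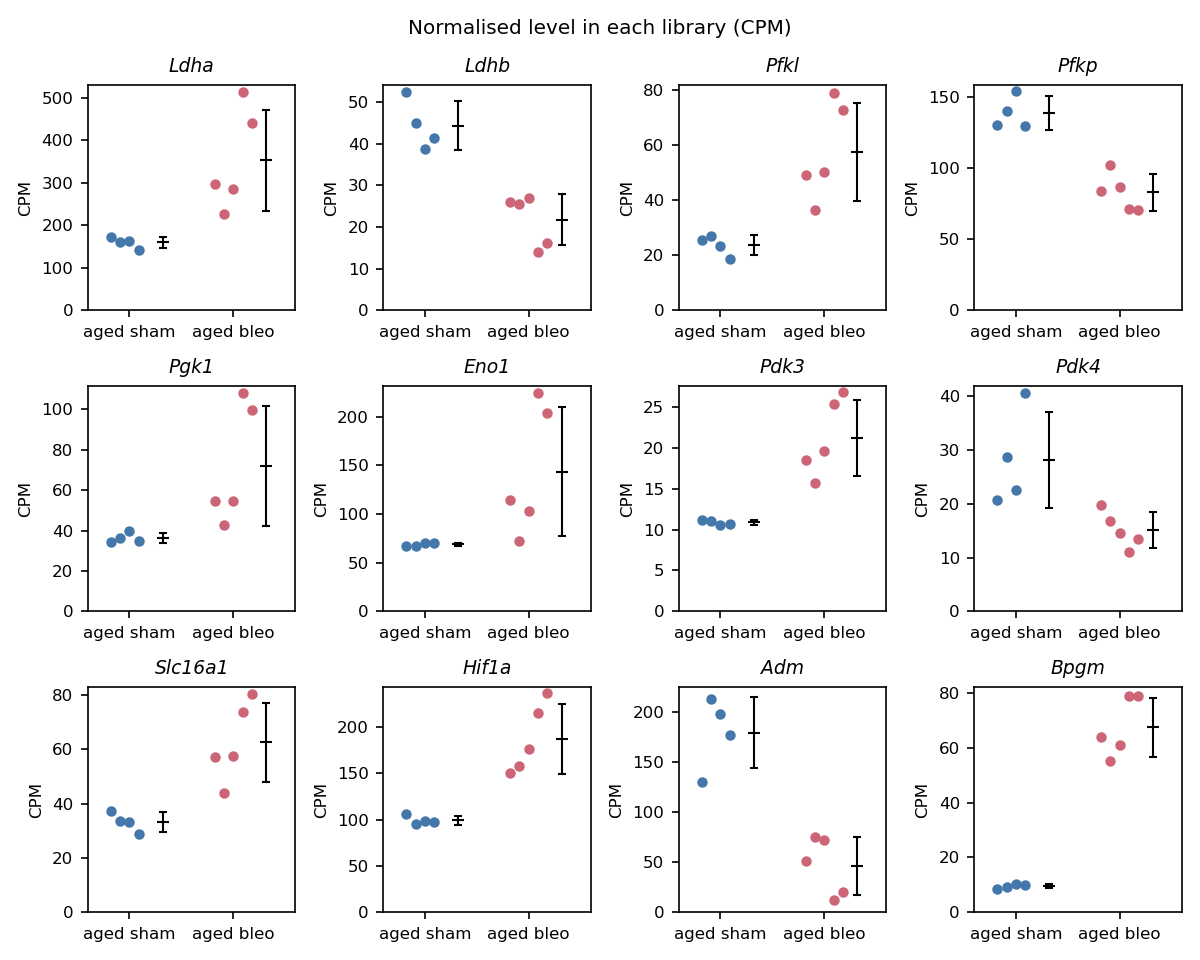
CPM of 12 genes in each aged sham (blue, n = 4) and aged bleo (red, n = 5) library, with mean and SD, on linear axes that start at 0. The 12 genes were picked from those called, and all 12 pairs of groups are without overlap. Gapdh, Epas1, and Ankrd37, which were called with overlapping groups, are not shown. Over all genes tested, 16.1% were without overlap in each direction. Ldhb, Pfkp, Pdk4, and Adm are lower in aged bleo and the other 8 genes are higher.

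Both HIF alpha subunits were higher in aged bleo. Hif1a (chr12:73901375-73947530), whose protein drives glycolytic genes, was at 106, 95.3, 98.6, and 97.1 CPM in aged sham and 150.03, 158, 176, 215, and 237 CPM in aged bleo (log2 fold change 0.91 ± 0.14, FDR = 0.00171). The groups did not overlap, and the log2 fold change was 0.82 to 0.98 with any 1 library left out. Epas1 (HIF2A) was at 76.5, 58.1, 66.1, and 45.7 CPM in aged sham and 111, 116, 111, 57.5, and 98.4 CPM in aged bleo (log2 fold change 0.68 ± 0.22, FDR = 0.0372). Aged bleo 4, the library highest in most glycolytic genes, was lowest of its group for Epas1 and fell within the sham range. Leaving out aged sham 4 brought Epas1 to a log2 fold change of 0.56, below the fold threshold. The Hif1a share of the FPKM of both subunits was 59.5% ± 4.43 and 62.9% ± 9.68 (adjusted p = 0.671, exact permutation test). These are RNA levels, and HIF proteins, which are controlled mostly by their stability, were not measured in these libraries.

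The prolyl hydroxylases, which mark HIF for destruction and of which Egln3 is itself a HIF target, were not called. Egln1 (PHD2) was at 63.1, 72.0, 74.5, and 68.6 CPM in aged sham and 64.5, 65.4, 64.3, 58.4, and 58.4 CPM in aged bleo (log2 fold change -0.16 ± 0.07, FDR = 0.09999). Its FDR was just under the threshold and its fold change was not past 1.5. Egln3 (PHD3) was at 27.1, 8.26, 5.88, and 9.61 CPM in aged sham and 9.12, 8.20, 14.8, 5.52, and 6.38 CPM in aged bleo (log2 fold change -0.53 ± 0.46, FDR = 0.393). Aged sham 1 alone set the direction of Egln3, which was 0.15 without it.

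Of the other 5 HIF targets, Adm was called lower and Ankrd37 higher. Adm (chr7:110627661-110629820), which encodes the vasodilator peptide adrenomedullin, was at 131, 213, 198, and 177 CPM in aged sham and 51.4, 75.2, 72.0, 12.8, and 20.6 CPM in aged bleo (log2 fold change -1.95 ± 0.48, FDR = 0.0140). It was 3.88-fold lower without overlap, and lowest in aged bleo 4 and 5, where Ldha and Pgk1 were highest. Ndrg1, a stress-response gene, averaged 184 ± 20.3 CPM in the 4 aged sham and 128 ± 16.5 CPM in the 5 aged bleo libraries (± SD). Bnip3, a mitophagy receptor, averaged 31.1 ± 3.88 and 22.6 ± 3.81 CPM. In both genes every aged bleo library was below every aged sham library and the FDR was passed (0.00820 and 0.0254), but the log2 fold changes of -0.52 and -0.46 did not reach the fold threshold. Vegfa, the vascular growth factor, averaged 172 ± 12.8 and 197 ± 32.7 CPM (log2 fold change 0.19 ± 0.12, FDR = 0.249) and was not called. Ankrd37 was called higher (log2 fold change 1.05 ± 0.44, FDR = 0.0887) at 0.855, 0.547, 0.895, and 0.484 CPM in aged sham and 1.58, 0.639, 0.728, 2.64, and 1.59 CPM in aged bleo. Its groups overlapped, its 24 to 194 reads in a library lie beside the 13014 summed reads of Ufsp2, a gene on the opposite strand that overlaps it, and the call was lost when any 1 library other than aged bleo 2 or aged bleo 3 was left out.

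To see whether the rest of each pathway moved, 2 further lists were counted. Of 36 other glycolysis and pyruvate genes, 31 were tested. Bpgm and Adpgk were called higher and Slc16a7 and Galm lower, 6.45% in each direction, where 12.3% of all genes tested were higher and 11.5% lower. Bpgm, which makes and removes 2,3-bisphosphoglycerate, was at 8.58, 9.23, 10.5, and 9.95 CPM in aged sham and 63.7, 54.9, 60.9, 78.7, and 78.6 CPM in aged bleo. The log2 fold change of 2.82 ± 0.13 (FDR = 7.7e-06) was larger than that of any of the 36 genes, and the 5 aged bleo libraries were close to each other. Adpgk, an ADP-dependent glucokinase, averaged 25.003 ± 1.41 CPM in the 4 aged sham and 37.9 ± 6.48 CPM in the 5 aged bleo libraries (± SD, log2 fold change 0.60 ± 0.12, FDR = 0.00640). Slc16a7 (MCT2), a further monocarboxylate carrier, averaged 11.2 ± 1.11 and 4.65 ± 2.22 CPM (log2 fold change -1.27 ± 0.32, FDR = 0.0147). Galm, galactose mutarotase, averaged 14.7 ± 1.12 and 8.23 ± 0.860 CPM (log2 fold change -0.84 ± 0.10, FDR = 0.000485). The other 27 were not called. The median log2 fold change of the 31 was -0.0032, against 0.01 for all genes tested. Without aged sham 2, aged bleo 4, or aged bleo 5, Adpgk was no longer called.

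Of 39 other HIF pathway genes, all tested, 11 were called higher (28.2%) and 3 lower (7.69%), where 12.3% and 11.5% of all genes tested were, and the median log2 fold change was 0.13. The higher ones included Ddit4, an inhibitor of mTORC1 (log2 fold change 2.17 ± 0.37, FDR = 0.00271), the lipid droplet genes Plin2 (log2 fold change 0.89 ± 0.15, FDR = 0.00312) and Hilpda (log2 fold change 0.76 ± 0.22, FDR = 0.0252), and Angptl4, an inhibitor of lipoprotein lipase (log2 fold change 1.21 ± 0.41, FDR = 0.0450). Plod2, a lysyl hydroxylase that prepares collagen for crosslinking, was at 70.4, 58.3, 67.6, and 64.4 CPM in aged sham and 140.4, 125, 147, 175, and 243 CPM in aged bleo (log2 fold change 1.35 ± 0.19, FDR = 0.00102). Also higher were Hmox1, heme oxygenase (log2 fold change 0.63 ± 0.19, FDR = 0.0321), Tfrc, the transferrin receptor (log2 fold change 1.04 ± 0.36, FDR = 0.0498), Mif, a cytokine (log2 fold change 1.14 ± 0.31, FDR = 0.0197), and Gys1, glycogen synthase (log2 fold change 0.79 ± 0.18, FDR = 0.0109). The carbonic anhydrases went in opposite directions, with Car12 higher (log2 fold change 3.08 ± 0.75, FDR = 0.0130, from 0.164 to 1.39 CPM) and Car9 lower (log2 fold change -0.64 ± 0.25, FDR = 0.0782, from 3.05 to 1.96 CPM). Stc2, a secreted glycoprotein, and Insig2, a regulator of sterol synthesis, were also lower (log2 fold change -0.79 ± 0.18, FDR = 0.00893, and log2 fold change -0.59 ± 0.10, FDR = 0.00265). The groups of Angptl4, Tfrc, and Car9 overlapped. Without aged sham 2, 7 of the 39 were called higher, and without aged sham 1, aged bleo 4, or aged bleo 5, 1 was called lower.

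HIF binds short motifs that include the letters ACGTG, and the start regions of the genes were searched for these letters alone, on both strands. RefSeq promoters (GRCm38.p6 reference sequence, 250 bases before to 50 after a start) were at hand for 33 of the 36 genes, not for Epas1, Slc2a3, or Ndrg1. ACGTG was found in 25 of 48 promoters of these genes (52.1%) and in 6447 of 32851 promoters of all genes (19.6%). Counted by gene and for this form of the motif alone, it was present for 10 of 12 genes called higher, 0 of 4 called lower, and 12 of 17 not called. Over all genes with promoters, 5886 of 27025 held it. Pfkl and Eno1 were the higher genes without it, and in Gapdh and Aldoc it lay only after the start. The 36 genes were chosen in part as HIF targets. The promoters of the genes were also richer in G and C, with a median of 61.7% against 52.7% for all promoters, 65.0% for the higher, and 59.0% for the lower genes, and the part of base composition in the match counts was not tested. ACGTG lies within the E-box CACGTG, which other factors bind and which 14.6% of the promoters of these genes and 7.15% of all promoters held. The 250 bases before the start are printed for 3 genes called higher that hold the letters and 2 called lower that do not. They are in lower case with ACGTG, its reverse complement CACGT, or both together as CACGTG in capitals. They are reference sequence, not that of the FVB mice.
Ldha (chr7:46845554-46845803, plus strand): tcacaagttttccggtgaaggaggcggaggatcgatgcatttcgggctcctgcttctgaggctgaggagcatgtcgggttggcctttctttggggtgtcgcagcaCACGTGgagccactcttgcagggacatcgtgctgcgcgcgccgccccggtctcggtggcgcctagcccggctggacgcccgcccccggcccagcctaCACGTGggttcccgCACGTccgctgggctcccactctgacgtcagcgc
Pgk1 (chrX:106186850-106187099, plus strand): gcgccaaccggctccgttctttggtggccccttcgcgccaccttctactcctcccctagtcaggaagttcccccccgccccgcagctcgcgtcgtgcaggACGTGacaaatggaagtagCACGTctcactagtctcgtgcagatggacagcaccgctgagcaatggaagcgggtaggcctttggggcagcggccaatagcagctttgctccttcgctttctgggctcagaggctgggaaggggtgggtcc
Slc16a1 (chr3:104638414-104638663, plus strand): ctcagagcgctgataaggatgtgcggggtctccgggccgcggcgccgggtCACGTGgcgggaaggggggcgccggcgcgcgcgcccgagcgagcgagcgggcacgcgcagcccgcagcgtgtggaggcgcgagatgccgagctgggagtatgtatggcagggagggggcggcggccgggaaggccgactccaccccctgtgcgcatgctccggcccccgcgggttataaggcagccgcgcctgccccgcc
Ldhb (chr6:142507958-142508207, minus strand): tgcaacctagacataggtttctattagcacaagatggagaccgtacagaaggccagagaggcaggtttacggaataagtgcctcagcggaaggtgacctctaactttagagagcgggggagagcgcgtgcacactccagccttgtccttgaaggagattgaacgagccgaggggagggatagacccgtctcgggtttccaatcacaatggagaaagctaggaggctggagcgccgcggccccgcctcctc
Adm (chr7:110627407-110627656, plus strand): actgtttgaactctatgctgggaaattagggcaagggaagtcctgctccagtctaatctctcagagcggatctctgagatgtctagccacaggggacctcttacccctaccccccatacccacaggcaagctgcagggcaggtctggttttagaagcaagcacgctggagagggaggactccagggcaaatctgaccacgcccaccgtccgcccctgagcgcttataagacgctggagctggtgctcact
The printed Ldha promoter held the letters at 3 places, 2 of them full E-boxes, within 145 bases of the start. A further Ldha promoter (chr7:46846832-46847131), not printed, did not hold the letters. Pgk1 held them at 2 places, at 150 and 131 bases before its start, and Slc16a1 in 1 E-box about 200 bases before its start and at 1 place after the start, outside the bases printed. A match is only a match of letters, and a window without one says nothing about binding elsewhere. Other forms of the motif, such as GCGTG, were not counted over these genes or over all promoters. GCGTG or its reverse complement CACGC occurs in the printed windows of Slc16a1, which was called higher, and of Ldhb and Adm, which were called lower. GCGTG also occurs before the start in Pfkp and Pdk4, not printed, so every gene called lower holds this other form. The counts for higher and lower genes given above are therefore for ACGTG alone.

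Several of these genes share sequence with pseudogenes or overlap a neighbour, and the library kit does not record the strand. For Gapdh, 88.0% of the transcript was at least 95% identical to parts of 81 other listed genes, which held 27.3% as many reads as Gapdh. For Eno1 the shared part was 85.6%, and its near-identical copies held 44.6% as many reads. For Pgk1, Pkm, Ldha, and Ldhb the shared parts were 55.0% to 76.8% of the transcript, but the copies held at most 8.16% as many reads as the gene. Pgam1 shared 43.1% with 1 other gene, which held 11.4% as many reads. Gpi1 shared 55.3% of its transcript with 5 genes that held 58.3% as many reads. Pfkp overlaps Pitrm1, on the opposite strand, over 18.0% of its transcript, and Pitrm1 held 54.5% as many reads. Pfkl, Slc16a1, Pdk3, Pdk4, and Adm had no near-identical copy by this measure.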

How the data were processed

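Libraries from 4 aged sham and 5 aged bleo mice, separate animals by the labels, were compared, and every library was used. Poly-A libraries were made with a kit that does not mark strand. The submitters' processing notes name bcl2fastq, STAR 2.5.2b, Subread, featureCounts, and the mm10 and GRCm38 builds, and the strand setting of the counting is not given in the sources used here. The authors deposited 1 table that holds raw read counts, which are whole numbers per gene and library, and FPKM values, which are the authors' own scaling to gene length and library size. The total behind the FPKM values is 2.27 to 2.42 times the summed counts. Positions were read as GRCm38, because 78.8% of the identifiers shared with GENCODE M21 have the same position there.

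The 36 genes and all lists were chosen with earlier results of these data known. Genes with a mean count of at least 25 (16877 of 43346) were tested with edgeR 4.0.16 (TMM, glmQLFit, glmQLFTest) in R 4.3.3 without covariates, and Benjamini-Hochberg adjustment ran over all of them. This filter and the thresholds (FDR under 0.10, fold change over 1.5) follow the study, which used a moderated test, and limma-voom stands in for it as an alternative. CPM values are TMM-normalised, and log2 CPM has a prior count of 2. SE was derived from the test, as the absolute log2 fold change divided by the square root of its quasi-likelihood F statistic. A count of 3, the most that a count of 0 allows, is 0.0409 to 0.0604 CPM, and this limit covers counting error only. Shares within a family were computed on FPKM and tested by two-sided exact permutation over every assignment of the libraries to groups of 4 and 5, adjusted over 16 shares. No 2 libraries of the same group agreed within sampling noise. The script was tested on simulated data.

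All 36 genes are named. Values in each library are given for those past the thresholds and for members of enzyme families. From the other 2 lists, genes past the thresholds are named, at most 10 per list and direction by smallest FDR, so Ak4 was left out. Ufsp2 and Pitrm1 (for their overlap), Eno3 and Slc2a10 (as genes outside the family sums), and Tek, Col1a2, Dcn, and Tcf21 (for their part in marker sums) were named after their values were seen. Some genes of the lists are not reported here. Near-identical copies were found with blastn 2.17.0 (at least 95% identity over 100 bases). Alternatives were DESeq2 1.42.0, limma-voom and limma 3.58.1 on log2(FPKM + 0.1) and log2(FPKM + 1), RLE or no scaling factors, all genes without a filter, a minimum of 10 counts per library, stricter thresholds (FDR under 0.05, fold change over 2), each library left out, a replicate block, only libraries whose name ends in 4, shares of CPM, and, chosen after seeing the data, the removal of both leukocyte-rich libraries.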

Additional observations from a re-analysis of the deposited data

Results flagged for a closer look

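In each group and for each of the 36 genes, the highest and lowest library were compared with the rest by Dixon's criterion, 72 groups in all. Chance flags about 1 in 20 groups, and 5 were flagged. In aged bleo 4, the library richest in leukocyte markers, Slc2a3 was at 37.6 CPM (next highest of its group, 13.1), Slc16a3 at 167 CPM (next, 47.2), and Vegfa at 253 CPM (next, 192). Gpi1 was lowest in aged sham 4, at 172 CPM, where the other 3 aged sham libraries were at 176 CPM or above. Pfkm was highest in aged sham 2, at 37.4 CPM against 32.6 CPM for the next. What set these libraries apart for these genes was not tested.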

How the results depend on the processing

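Of the 17 genes called among the 36, 11 kept their call under every alternative at the same thresholds (Pfkl, Pfkp, Pgk1, Eno1, Ldha, Ldhb, Slc16a1, Pdk3, Pdk4, Hif1a, and Adm). Across tools, scalings, and filters, 11 to 13 of the 36 were called higher and 4 lower, and with 1 library left out 11 to 14 and 4 to 5. The stricter thresholds (FDR under 0.05, fold change over 2) left 4 higher and 2 lower. Over all genes, 2082 were higher and 1940 lower, 960 and 825 with log2(FPKM + 1), 1224 and 934 at the stricter thresholds, and 3058 and 3113 with only libraries whose name ends in 4. Calls of Gapdh, Pgam1, Pkm, and Ankrd37 were lost with the replicate block, which left 9 of the 36 higher and 4 lower, and 1822 higher and 1714 lower over all genes. The block changed no other call among the 36. Deviations of same-numbered libraries correlated at -0.13 to 0.33 over 4 pairs, and 1 aged sham library, aged sham 4, correlated best with its own number. Whether the replicate numbers pair the mice is not given by the labels, and 4 pairs are too few to settle it. Aldoc was at 0.19 with log2(FPKM + 1), since its level is far below that pseudocount.

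The other lists were less stable. Other glycolysis genes called higher numbered 1 with log2(FPKM + 1), the stricter thresholds, the replicate block, and without both leukocyte-rich libraries, 4 with only libraries whose name ends in 4, and 1 to 2 with 1 library left out. Those called lower numbered 0 with log2(FPKM + 1) and 1 at the stricter thresholds. Other HIF pathway genes called higher numbered 6 with log2(FPKM + 1) and at the stricter thresholds, and 7 to 12 with 1 library left out. Those called lower numbered 1 with log2(FPKM + 0.1) and with no filter, 0 with log2(FPKM + 1) and at the stricter thresholds, 6 with only libraries whose name ends in 4, and 1 to 4 with 1 library left out. The log2(FPKM + 1) scale shrinks low genes, and the cause was not tested for the rest.

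With only libraries whose name ends in 4, aged bleo 4 stands alone against 4 aged sham libraries and is assumed to vary like them. There the log2 fold changes of Slc2a3 (0.58), Gpi1 (0.16), Slc16a3 (1.14), Pfkfb4 (0.29), and Epas1 (-0.090) turned, and 14 of the 36 were called higher and 5 lower. What the ending means is not given in the sources used here. Leaving out 1 library turned Aldoa (-0.0096 without aged bleo 4, range to 0.14), Slc16a3 (-1.07 to 0.31) and Pfkfb4 (-0.28 to 0.039), both without aged sham 4, Pdk2 (-0.14 to 0.013, without aged sham 2), and Egln3 (-0.80 to 0.15, without aged sham 1), and Aldoa was at -0.043 without both leukocyte-rich libraries. Of these genes, Epas1 is the one that was called.

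Differences in shares (percentage points, aged bleo minus aged sham) that changed were Pfkl 17.6, Pfkp -18.7, and Eno1 14.8, which lost the threshold without both leukocyte-rich libraries, and Slc16a1 19.6, which passed it there. Pfkm turned to 3.20 on shares of CPM and 1.07 without both leukocyte-rich libraries. With 1 library left out, Eno1 ran from 13.7 to 20.7, Slc2a1 from 5.59 to 12.7, Slc16a1 from 13.2 to 26.7, Pfkm from -1.24 to 0.59, Hif1a from -0.26 to 5.35, and Egln1 from -2.67 to 6.25. Fewer libraries also raise the smallest p that the exact test can give. Depth limits Aldoc (10 to 158 reads), Ankrd37, and Car12 (1 to 213 reads). With 4 and 5 mice, changes smaller than the spread of the aged bleo libraries would be missed, and 19 uncalled genes are not shown to be unchanged.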
